A study of Mus musculus with 12 samples.

Results

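Myc, the transcription factor best known for driving cell growth, and 39 genes of the nucleolar machinery that makes ribosomes were followed across cultured mouse mammary fibroblasts exposed to doxorubicin or hydrogen peroxide. The 40 genes were taken from the deposited table by symbol from a fixed list, and all 40 were found among its 55487 genes. The cells were 1 primary line, grown out of a B6 mouse's mammary fat pad, so every group shares that line and strain and the labels name no altered allele. Each of 4 groups held 3 libraries. In the doxorubicin group the cells received 100 nM of this DNA-damaging drug for 24 h and were lysed on day 7. Its vehicle group received water and was lysed on the same day. In the peroxide group the cells received 750 uM hydrogen peroxide for 2 h, recovered for 48 h, had 3 such exposures in all and were lysed on day 6. It had a water vehicle group of its own, also lysed on day 6. The series describes the treated cells as senescent. Both vehicle groups were split through the experiment to keep their density healthy, so treatment and passaging cannot be told apart, and neither can treatment and day between the experiments. Whether replicates came from separate cultures is not stated, and p-values therefore speak for the spread between libraries only, which may be technical.

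Ribosomes are built mainly in the nucleolus. RNA polymerase I copies the ribosomal DNA into a long precursor RNA, which is cut, chemically modified and folded while proteins assemble on it. Small nucleolar RNAs guide most modifications, box C/D particles for methylation and box H/ACA particles for pseudouridylation, and separate sets of factors carry the precursors of the small and the large subunit to completion. Myc is known as an activator of many of these genes, which it binds with its partner Max at E-box motifs.

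The canonical E-box, CACGTG, reads the same on both strands. Promoter windows running from 250 bases before to 50 bases after the start site (RefSeq, GRCm38.p6) were matched for 33 of the 40 members. A gene with several start sites has several windows and is counted once, as holding a motif when any of them does. CACGTG was held by 6 of the 33 members (18.2%) and by 2187 of 27025 genes with a window (8.09%). The variant CACGCG, searched on both strands, was held by 12 members (36.4%) and 10.5% of all these genes, and the variant CATGTG, also on both strands, by 6 (18.2%) and 15.9%. The 27025 genes were not limited to expressed ones, and their windows were not matched to those of the members in base content. The shares are therefore descriptions of unlike sets, with no test. The 6 stretches that hold CACGTG are shown because this is the motif by which Myc is known to bind, and capitals mark it.
Ltv1: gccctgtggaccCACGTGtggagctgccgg
Mybbp1a: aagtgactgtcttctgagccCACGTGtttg
Nop2: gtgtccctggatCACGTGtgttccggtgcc
Pes1: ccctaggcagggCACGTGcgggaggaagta
Utp20: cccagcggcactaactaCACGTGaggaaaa
Wdr43: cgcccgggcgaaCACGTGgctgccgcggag
Each stretch is 30 bases long and reads 5' to 3' on the strand of its gene. They lie at chr10:13193092-13193121 (minus strand) for Ltv1, chr11:72441347-72441376 (plus strand) for Mybbp1a and chr6:125131811-125131840 (plus strand) for Nop2. The others lie at chr11:3963965-3963994 (plus strand) for Pes1, chr10:88826765-88826794 (minus strand) for Utp20 and chr17:71616220-71616249 (plus strand) for Wdr43. The motif in Nop2 begins 60 bases before the start site, and in the others it begins after it, at bases 3 (Pes1), 18 (Wdr43), 29 (Ltv1), 38 (Utp20) and 41 (Mybbp1a). No promoter window was matched for Myc, Npm1, Fbl, Bop1, Rrp12, Rrs1 or Tcof1.

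Depth, estimated from the step between values, ran from 17.3 to 37.6 M (1e+06) reads per library, and the CPM (counts per 1e+06 assigned reads) worth 3 reads ran from 0.0798 to 0.173, which covers counting error only. A set of 3 libraries stood apart from the rest of their groups: doxorubicin replicate 1, day 7 vehicle replicate 3 and peroxide replicate 2. The main direction in which libraries of a group differed held 46.8% of the within-group variance of the 13280 genes tested, and these 3 libraries were the lowest along it. To check the label of fibroblasts, markers were read: all 8 listed fibroblast markers were tested, with summed levels of 7219 to 12564 CPM. None of the 6 epithelial markers reached the level needed for testing, and their sum was at most 1.16 CPM. Of 4 endothelial markers only Tek was tested, while Pecam1, Cdh5 and Kdr averaged below 1 CPM, and Tek rose under both treatments. The endothelial sum was 34.0 to 44.4 CPM after doxorubicin, 12.4 to 16.1 CPM in its vehicle group, 22.1 to 27.3 CPM after peroxide and 5.57 to 9.19 CPM in its vehicle group. Of 5 leukocyte markers 3 were tested, and the defining Ptprc averaged below 1 CPM, as did Adgre1. All 3 rose after doxorubicin, while after peroxide 2 rose and 1 fell. The leukocyte sum was 27.1 to 32.4 CPM after doxorubicin, 11.1 to 17.7 CPM in its vehicle group, 23.1 to 26.1 CPM after peroxide and 16.3 to 17.4 CPM in its vehicle group. The 4 adipocyte markers, 3 of them tested, summed to 1391 to 1481 CPM after doxorubicin, 2237 to 2441 CPM in its vehicle group, 2091 to 2194 CPM after peroxide and 977 to 1174 CPM in its vehicle group, nearly all of it Lpl. The 4 pericyte and Schwann cell markers, 3 of them tested, summed to 34.8 to 40.7 CPM after doxorubicin, 27.8 to 34.2 CPM in its vehicle group, 41.2 to 48.2 CPM after peroxide and 28.8 to 31.7 CPM in its vehicle group. Of 10 listed genes of cycling cells, 8 fell after doxorubicin, all 10 fell after peroxide and all 10 were lower in the day 7 than in the day 6 vehicle group, at 704 to 776 CPM summed after doxorubicin, 1390 to 1624 CPM in its vehicle group, 794 to 945 CPM after peroxide and 2662 to 3635 CPM in its vehicle group. Over all genes tested, 27.8% fell after doxorubicin, 23.4% fell after peroxide and 12.9% were lower in the day 7 vehicle group. The part of these markers and of cycling cells in the results on the members was not tested.

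After peroxide, 39 of the 40 genes fell against their vehicle group, at a median log2 fold change of -1.01. Doxorubicin gave a mixed picture: 18 members fell, 3 rose (Bop1, Rrp9 and Bysl) and 19 did not pass the test, at a median of -0.24. A gene is counted as having changed when its adjusted p in limma was below 0.05, and fold changes are differences of log2(CPM + 1). Among all 13280 genes tested, 23.4% fell and 27.3% rose after peroxide, with a median of -0.01, while 27.8% fell and 22.1% rose after doxorubicin, with a median of -0.03. None of the members rose after peroxide by limma, also at an unadjusted p below 0.05, and all 40 had a negative fold change. The summed level of the 40 genes was 3914 ± 63.5 CPM after peroxide against 8029 ± 199 CPM in its vehicle group (SD, n = 3). After doxorubicin it was 3939 ± 143 CPM against 5645 ± 120 CPM (SD, n = 3). Much of the sum is Npm1 and Ncl, and without them it was 2064 against 4060 CPM for peroxide and 2406 against 2602 CPM for doxorubicin. In bulk samples such as these, fewer cells of a type and less RNA per cell cannot be told apart.

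**Figure D1:**
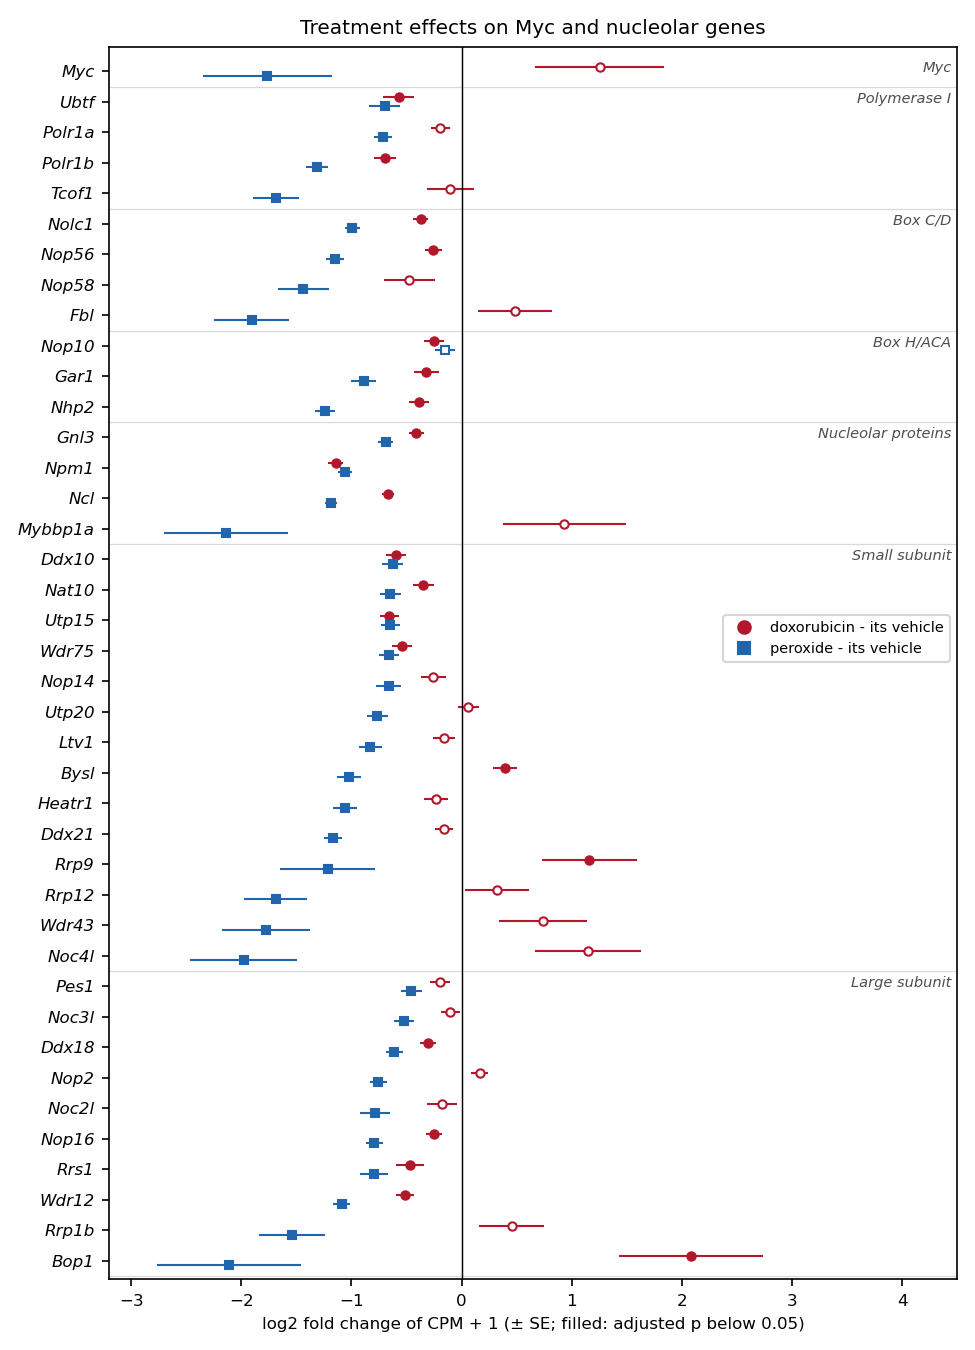
Log2 fold change of CPM + 1 for each member (x axis; rows are genes grouped by role) after doxorubicin (red circles) and peroxide (blue squares), each against its own vehicle group of 3 libraries. Bars are SE and filled symbols have an adjusted p below 0.05; the blue symbols lie left of 0 in all 40 rows, while the red symbols lie on both sides, from -1.14 (Npm1) to 2.09 (Bop1).

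Of the genes for nucleolar proteins, Npm1, Ncl and Gnl3 fell under both treatments. Npm1 (ENSMUSG00000057113, chromosome 11, 33152287 to 33163206, minus strand, mm10) encodes nucleophosmin, a histone and ribosome chaperone that shuttles out of the nucleolus. Npm1 was at 1275, 1252 and 1277 CPM after peroxide and 2628, 2648 and 2654 CPM in the day 6 vehicle group. It was at 1054, 884 and 1018 CPM after doxorubicin and 2136, 2174 and 2202 CPM in the day 7 vehicle group. The treated and vehicle libraries did not overlap in either experiment. Npm1 fell by 1.06 ± 0.07 log2 units after peroxide (SE, adjusted p = 2.74e-07) and by 1.14 ± 0.07 after doxorubicin (adjusted p = 1.42e-07), the largest fall among the members after doxorubicin. The difference between these effects was -0.08 ± 0.09 and did not pass the test (adjusted p = 0.512). Npm1 shares 40.9% of the 50-base windows of its longest transcript with other genes, so its values are less certain. The gene model Gm9118 had the most matches. Ncl (ENSMUSG00000026234, chromosome 1, 86344719 to 86359400, minus strand) encodes nucleolin, an RNA-binding protein of the nucleolus. Ncl was at 573, 599 and 573 CPM after peroxide and 1302, 1344 and 1332 CPM in the day 6 vehicle group. It was at 552, 524 and 567 CPM after doxorubicin and 839, 902 and 877 CPM in the day 7 vehicle group. Here too no treated library reached a vehicle library. Ncl fell by 1.19 ± 0.05 log2 units after peroxide (adjusted p = 2.88e-08) and by 0.67 ± 0.05 after doxorubicin (adjusted p = 2.05e-06). Gnl3, the GTP-binding protein nucleostemin, fell by 0.69 ± 0.07 and 0.41 ± 0.07 log2 units in the same order.

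Mybbp1a (ENSMUSG00000040463, chromosome 11, 72441355 to 72451768, plus strand) encodes another nucleolar protein, which binds the transcription factor Myb. Mybbp1a was at 74.0, 19.2 and 95.1 CPM after peroxide and 265, 250.3 and 184 CPM in the day 6 vehicle group. It was at 151, 173 and 174 CPM after doxorubicin and 123, 137 and 37.6 CPM in the day 7 vehicle group. Day 7 vehicle replicate 3 and peroxide replicate 2, which were among the libraries that stood apart, were far below the others of their groups. Mybbp1a fell by 2.14 ± 0.56 log2 units after peroxide (adjusted p = 0.00823), the largest fall among the members in that comparison. After doxorubicin its fold change was 0.93 ± 0.56 and did not pass the test (adjusted p = 0.187).

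All 4 members tied to transcription by polymerase I fell after peroxide, and 2 of them, Polr1b and Ubtf, fell after doxorubicin. Of all genes tested 23.4% and 27.8% fell in the same order. Polr1b (ENSMUSG00000027395, chromosome 2, 129100995 to 129126594, plus strand) encodes one of the large catalytic subunits of polymerase I. Polr1b was at 17.5, 14.3 and 18.9 CPM after peroxide and 45.7, 41.5 and 42.7 CPM in the day 6 vehicle group. It was at 16.0, 15.6 and 16.8 CPM after doxorubicin and 28.6, 26.7 and 25.1 CPM in the day 7 vehicle group. All 6 treated libraries were below all 6 vehicle libraries. Polr1b fell by 1.31 ± 0.10 log2 units after peroxide (SE, adjusted p = 1.44e-06) and by 0.69 ± 0.10 after doxorubicin (adjusted p = 0.000215). Its partner subunit Polr1a fell by 0.72 ± 0.08 after peroxide, with -0.19 ± 0.08 after doxorubicin (adjusted p = 0.0726). Ubtf, the upstream binding factor that keeps ribosomal DNA open, fell by 0.70 ± 0.14 and 0.57 ± 0.14 log2 units after peroxide and doxorubicin, effects whose difference did not pass the test (adjusted p = 0.641). Tcof1, the nucleolar protein treacle, which supports transcription of ribosomal DNA, fell by 1.69 ± 0.21 after peroxide. After doxorubicin Tcof1 was at 28.6 ± 3.33 against 31.1 ± 6.52 CPM (SD, n = 3), a fold change of -0.10 ± 0.21 (adjusted p = 0.708).

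The 4 members of the box C/D group all fell after peroxide, by 0.99 ± 0.07 (Nolc1) to 1.91 ± 0.34 log2 units (Fbl), where 23.4% of all genes tested fell. Nop56 (ENSMUSG00000027405, chromosome 2, 130274430 to 130279313, plus strand) encodes a core protein of the box C/D particle. Nop56 was at 229, 262 and 232 CPM after peroxide and 536, 568 and 499.8 CPM in the day 6 vehicle group. It was at 252, 220.5 and 243 CPM after doxorubicin and 272, 284 and 297 CPM in the day 7 vehicle group. The day 6 vehicle libraries were higher than the other 9, and the gap between doxorubicin and its vehicle group was narrow though without overlap. Nop56 fell by 1.15 ± 0.08 log2 units after peroxide (adjusted p = 5e-07) and by 0.26 ± 0.08 after doxorubicin (adjusted p = 0.0184). Without doxorubicin replicate 2, or without day 7 vehicle replicate 3, the doxorubicin call was lost, and its adjusted p reached 0.0995 over the alternatives. Nop56 shares 19.96% of its windows with other genes, with the most matches in the gene model AC122861.1. Nolc1, a chaperone of small nucleolar particles, was at 90.1, 104 and 90.9 CPM after peroxide and 184, 198 and 186 CPM in its vehicle group. It was at 96.0, 91.2 and 88.8 CPM after doxorubicin and 117, 121 and 119 CPM in its vehicle group. These groups did not overlap, and Nolc1 fell by 0.99 ± 0.07 (adjusted p = 5.4e-07) and 0.37 ± 0.07 log2 units (adjusted p = 0.000991). Nop58, the partner of Nop56, had -0.47 ± 0.23 after doxorubicin (adjusted p = 0.109). Fbl, the methyltransferase fibrillarin, had 0.48 ± 0.34 (adjusted p = 0.253), with doxorubicin libraries at 11.3, 31.1 and 27.4 CPM, and it was called higher without doxorubicin replicate 1, at 0.91 (adjusted p = 0.0111).

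All 3 members of the box H/ACA group, which form the particle together with the enzyme Dkc1, fell after doxorubicin, and 2 of them fell after peroxide. Of all genes tested 27.8% and 23.4% fell in the same order. Nhp2, an RNA-binding protein of the particle, was at 83.5, 64.0 and 73.9 CPM after peroxide and 178, 183 and 163 CPM in its vehicle group. It was at 80.5, 83.6 and 85.5 CPM after doxorubicin and 109.6, 115 and 103 CPM in its vehicle group. No treated library reached a vehicle library of its experiment, and Nhp2 fell by 1.24 ± 0.09 (adjusted p = 9.86e-07) and 0.39 ± 0.09 log2 units (adjusted p = 0.00498). Nop10, the smallest core protein, was at 125, 118 and 130.4 CPM after peroxide and 133, 135 and 147 CPM in its vehicle group. It was at 125, 97.7 and 107 CPM after doxorubicin and 127, 129.7 and 134 CPM in its vehicle group. Nop10 is the 1 member that did not pass the test after peroxide, at -0.15 ± 0.09 (adjusted p = 0.173), and it fell by 0.25 ± 0.09 after doxorubicin (adjusted p = 0.0342). The doxorubicin call of Nop10 was lost without doxorubicin replicate 2 or 3 or any one day 7 vehicle library, and that of Gar1 without doxorubicin replicate 1 or 2 or day 7 vehicle replicate 1 or 2, with adjusted p up to 0.161 and 0.121 over the alternatives. Gar1 had low levels, at 2.20 ± 0.188 against 3.00 ± 0.325 CPM after doxorubicin (SD, n = 3), a fall of 0.32 ± 0.11 log2 units (adjusted p = 0.0331).

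All 14 members that mature the small subunit fell after peroxide. After doxorubicin 4 fell (Wdr75, Utp15, Nat10 and Ddx10), 2 rose (Rrp9 and Bysl) and 8 did not pass the test. These shares, 28.6% and 14.3%, stand beside 27.8% and 22.1% of all genes tested, so the falls lay near the background. Utp15 (ENSMUSG00000041747, chromosome 13, 98246845 to 98263041, minus strand) belongs to the processome that assembles on the nascent precursor. Utp15 was at 27.5, 28.1 and 25.8 CPM after peroxide and 40.9, 43.7 and 44.5 CPM in the day 6 vehicle group. It was at 26.3, 25.8 and 22.4 CPM after doxorubicin and 36.6, 42.3 and 40.2 CPM in the day 7 vehicle group. The libraries of treated and vehicle groups did not overlap, and Utp15 fell by 0.65 ± 0.09 (adjusted p = 8.64e-05) and 0.66 ± 0.09 log2 units (adjusted p = 8.66e-05). The difference of these effects was -0.01 ± 0.12 (SE, adjusted p = 0.966). Ddx21, an RNA helicase of the nucleolus, was at 79.5, 73.6 and 72.0 CPM after peroxide and 173, 167 and 170.4 CPM in its vehicle group. It was at 81.2, 81.1 and 95.2 CPM after doxorubicin and 88.2, 103 and 96.7 CPM in its vehicle group, where the libraries overlap. Ddx21 fell by 1.17 ± 0.08 after peroxide (adjusted p = 6.09e-07) and had -0.16 ± 0.08 after doxorubicin (adjusted p = 0.121). Bysl, which acts late in the maturation of this subunit, moved in opposite directions: it fell by 1.02 ± 0.11 after peroxide (adjusted p = 1.44e-05) and rose by 0.39 ± 0.11 log2 units after doxorubicin (adjusted p = 0.0103). Its libraries were at 41.0, 43.9 and 44.3 CPM after doxorubicin and 33.6, 35.8 and 28.5 CPM in the vehicle group, without overlap. The Bysl call at 0.05 held with each library left out in turn. Of its windows 8.20% are shared with other genes, with the most matches in Ccnd3.

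Rrp9, a protein of the snoRNA particle that starts processing of the small subunit RNA, was at 7.68, 30.7 and 20.1 CPM after doxorubicin and 7.10, 7.34 and 6.67 CPM in its vehicle group. It was at 4.87, 7.07 and 4.77 CPM after peroxide and 24.1, 13.6 and 8.38 CPM in its vehicle group. Doxorubicin replicate 1 was close to the vehicle libraries while the other two were well above them. Rrp9 rose by 1.16 ± 0.43 log2 units after doxorubicin (adjusted p = 0.0432) and fell by 1.22 ± 0.43 after peroxide (adjusted p = 0.0354). Its doxorubicin call was lost without doxorubicin replicate 2 or 3, any one day 7 vehicle library, peroxide replicate 1 or 3, or day 6 vehicle replicate 2, with fold changes of 0.75 without doxorubicin replicate 2 (adjusted p = 0.175) and 1.05 without replicate 3 (adjusted p = 0.119). After peroxide its adjusted p was 0.0887 without peroxide replicate 1, 0.0876 without replicate 3, 0.142 without day 6 vehicle replicate 1 and 0.0733 without replicate 2, so none of these kept the call. Noc4l, Wdr43 and Rrp12, also factors of small subunit maturation, fell by 1.98 ± 0.48, 1.78 ± 0.40 and 1.69 ± 0.29 log2 units after peroxide and had 1.15 ± 0.48, 0.74 ± 0.40 and 0.32 ± 0.29 after doxorubicin, where none passed the test (adjusted p = 0.0684, 0.144 and 0.371). Noc4l libraries were at 11.1, 36.3 and 29.5 CPM after doxorubicin and 12.3, 13.2 and 5.69 CPM in the vehicle group, so that replicate 1 alone was within the range of the vehicle libraries. Without doxorubicin replicate 1 Noc4l was called higher, at 1.64 (adjusted p = 0.0109), and so was Wdr43, at 1.12 (adjusted p = 0.0325). Noc4l was also called higher after median-of-ratios rescaling, at 1.21 (adjusted p = 0.0494), and Rrp12 without peroxide replicate 2 (adjusted p = 0.0406).

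Of the other small subunit factors, Wdr75 of the processome fell by 0.66 ± 0.09 log2 units after peroxide and 0.54 ± 0.09 after doxorubicin. The helicase Ddx10 fell by 0.63 ± 0.09 and 0.59 ± 0.09. Nat10, which acetylates ribosomal RNA, fell by 0.65 ± 0.09 and 0.35 ± 0.09. In all 3 the difference between the treatment effects did not pass the test (adjusted p = 0.496, 0.87 and 0.105). Heatr1, Utp20, Nop14 and Ltv1 form a second set, which fell after peroxide and was not called after doxorubicin. Heatr1, a processome factor tied to transcription of ribosomal DNA, fell by 1.06 ± 0.11 after peroxide and had -0.23 ± 0.11 after doxorubicin (adjusted p = 0.0974). Utp20, a large scaffold protein, fell by 0.76 ± 0.09 and had 0.06 ± 0.09 (adjusted p = 0.599). Nop14 fell by 0.66 ± 0.11 and had -0.26 ± 0.11, and Ltv1, which acts in late maturation and export, fell by 0.83 ± 0.10 and had -0.16 ± 0.10 (adjusted p = 0.0801 and 0.208). For Heatr1, Utp20 and Ltv1 the difference between the effects passed the test (adjusted p = 0.00281, 0.00124 and 0.00636), and for Nop14 it did not (adjusted p = 0.0698).

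All 10 members that mature the large subunit fell after peroxide, and after doxorubicin 4 fell (Wdr12, Nop16, Rrs1 and Ddx18), 1 rose (Bop1) and 5 did not pass the test. Bop1, Pes1 and Wdr12 form a single complex needed for processing of the large subunit RNA, and after doxorubicin Bop1 rose and Wdr12 fell. Bop1 (ENSMUSG00000022557, chromosome 15, 76452989 to 76477277, minus strand) had the largest difference between the treatments of any member. Bop1 was at 10.7, 3.31 and 11.1 CPM after peroxide and 64.1, 34.8 and 20.2 CPM in the day 6 vehicle group. It was at 16.9, 62.4 and 57.2 CPM after doxorubicin and 12.3, 14.6 and 3.13 CPM in the day 7 vehicle group. After doxorubicin, replicates 2 and 3 were far above replicate 1, which in turn was above all vehicle libraries. Bop1 rose by 2.09 ± 0.65 log2 units after doxorubicin (SE, adjusted p = 0.0206) and fell by 2.12 ± 0.65 after peroxide (adjusted p = 0.0188). The rise was 1.76 without doxorubicin replicate 2 (adjusted p = 0.0787), 1.82 without replicate 3 (0.0739) and 1.48 without day 7 vehicle replicate 3 (0.0849), so it passed the test in none of these. The peroxide effect was -1.63 without peroxide replicate 2 (adjusted p = 0.0697) and -1.70 without day 6 vehicle replicate 1 (0.0772). Wdr12 was at 87.2, 73.9 and 84.2 CPM after doxorubicin and 112, 115 and 124 CPM in its vehicle group. It was at 70.1, 71.9 and 70.9 CPM after peroxide and 142, 164 and 152 CPM in its vehicle group. Neither pair of groups overlapped, and Wdr12 fell by 0.51 ± 0.08 (adjusted p = 0.000273) and 1.09 ± 0.08 log2 units (adjusted p = 7.86e-07). Pes1 had -0.19 ± 0.09 after doxorubicin (adjusted p = 0.101) and fell by 0.46 ± 0.09 after peroxide (adjusted p = 0.00174). Rrs1, a factor of early large subunit assembly, fell by 0.80 ± 0.13 after peroxide and 0.47 ± 0.13 after doxorubicin. The helicase Ddx18 fell by 0.61 ± 0.07 and 0.30 ± 0.07. Nop2, a methyltransferase of ribosomal RNA, fell by 0.75 ± 0.08 after peroxide and had 0.16 ± 0.08 after doxorubicin (adjusted p = 0.115). Noc2l and Noc3l, which accompany the precursor out of the nucleolus, fell by 0.79 ± 0.14 and 0.53 ± 0.09 after peroxide and had -0.18 ± 0.14 and -0.10 ± 0.09 after doxorubicin (adjusted p = 0.297 and 0.367). Rrp1b fell by 1.54 ± 0.30 after peroxide and had 0.45 ± 0.30 after doxorubicin (adjusted p = 0.227), and was called higher without doxorubicin replicate 1, at 0.77 (adjusted p = 0.0340). Nop16 fell by 0.79 ± 0.08 after peroxide and 0.25 ± 0.08 after doxorubicin, a call lost without doxorubicin replicate 2 or 3 or day 7 vehicle replicate 2 or 3 (adjusted p up to 0.107). Windows shared with other genes make Pes1 (24.1%, most matches in Gm5910) and Ddx18 (62.7%, most in Gm16433) less certain. They do the same for Noc2l (19.4%, most in Samd11).

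Myc itself (ENSMUSG00000022346, chromosome 15, 61985391 to 61990374, plus strand) fell after peroxide and did not pass the test after doxorubicin. Myc was at 12.7, 8.001 and 15.2 CPM after peroxide and 83.5, 37.8 and 22.9 CPM in the day 6 vehicle group. It was at 14.4, 65.1 and 63.5 CPM after doxorubicin and 18.1, 22.4 and 9.80 CPM in the day 7 vehicle group. Doxorubicin replicates 2 and 3 were above all libraries of their vehicle group, while replicate 1 was within its range, and the day 6 vehicle libraries were widely spread but all above the peroxide libraries. The fold change was -1.76 ± 0.59 after peroxide (SE, adjusted p = 0.0263) and 1.26 ± 0.59 after doxorubicin (adjusted p = 0.0954), and the difference of 3.02 ± 0.83 passed the test (adjusted p = 0.0186). Single libraries decided both calls. Without doxorubicin replicate 1 the doxorubicin effect was 1.95 (adjusted p = 0.00645). The peroxide effect was -1.27 without day 6 vehicle replicate 1 (adjusted p = 0.110), -1.52 without peroxide replicate 2 (0.0796), -1.82 without peroxide replicate 1 (0.0521) and -1.83 without day 6 vehicle replicate 2 (0.0540), none past the threshold.

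**Figure D2:**
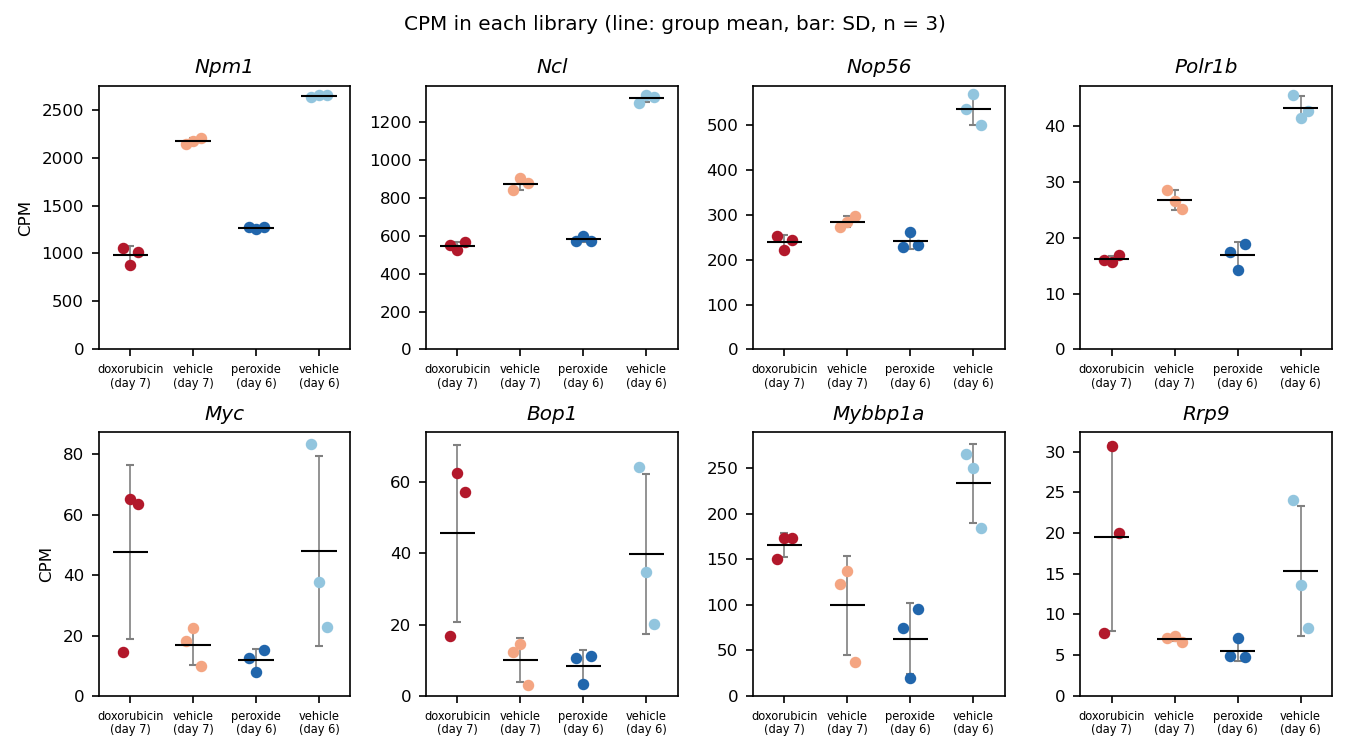
CPM (y axis) of 8 members in each of the 12 libraries by group (x axis); points are libraries, horizontal lines are group means and bars are SD (n = 3). Npm1, Ncl, Nop56 and Polr1b lie in tight groups, whereas Myc, Bop1, Mybbp1a and Rrp9 spread widely within groups, with Myc at 14.4, 65.1 and 63.5 CPM after doxorubicin.

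The members differed in how far replicates spread. The within-group SD on the log2 scale ran from 0.044 (Ncl) to 0.94 (Bop1), with a median of 0.115 against 0.168 over all genes tested. In 11 members it was above 0.25, a limit chosen after the values were seen: Bop1, Myc, Mybbp1a, Noc4l, Rrp9, Wdr43, Fbl, Rrp1b, Rrp12, Nop58 and Tcof1 (0.29). The next was Ubtf (0.19). Such a spread was found in 27.5% of members and 24.3% of all genes tested. Over the 12 libraries, the deviations of the 10 others from their group means correlated with those of Myc at r = 0.33 to 0.98, and in the other 29 members r ran from -0.72 to 0.53. These correlations are descriptions over 12 libraries that differ in depth and in how levels vary with GC content, and both act on all genes of a library at once. Myc and the 10 were grouped by the size of these same deviations, so the values are no independent support for a link to Myc. For other genes of wide spread such correlations are not given here. The median GC content was 53.7% in the 11 genes, 48.3% in the 29 and 49.2% over all genes tested. With the main within-group direction, the 11 correlated at 0.46 to 0.97 and the other 29 at -0.85 to 0.75. With each library corrected for GC content 2 rose and 17 fell after doxorubicin, and 39 fell after peroxide.

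Counted separately, the 29 members of narrow spread gave 18 falls and 1 rise after doxorubicin (median -0.30) and 28 falls after peroxide (median -0.79). The 11 of wide spread gave 2 rises after doxorubicin (median 0.74), with 9 that did not pass the test, and 11 falls after peroxide (median -1.76). The spread enters the test, so calls are harder to reach in the wide group by construction. Over all genes tested 27.8% fell and 22.1% rose after doxorubicin, and 23.4% fell after peroxide. Without the 3 libraries that stood apart, 7 members rose after doxorubicin instead of 3, and 39 fell after peroxide as before. The number that rose after doxorubicin was 8 without doxorubicin replicate 1, 5 without peroxide replicate 2 and 1 without doxorubicin replicate 2, doxorubicin replicate 3 or day 7 vehicle replicate 3. Over all genes tested 2937 rose, or 3489 without the 3 libraries that stood apart. The number over all genes was 3289, 3216, 2378, 2355 and 2394 with these single libraries left out, in the order given.

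**Figure D3:**
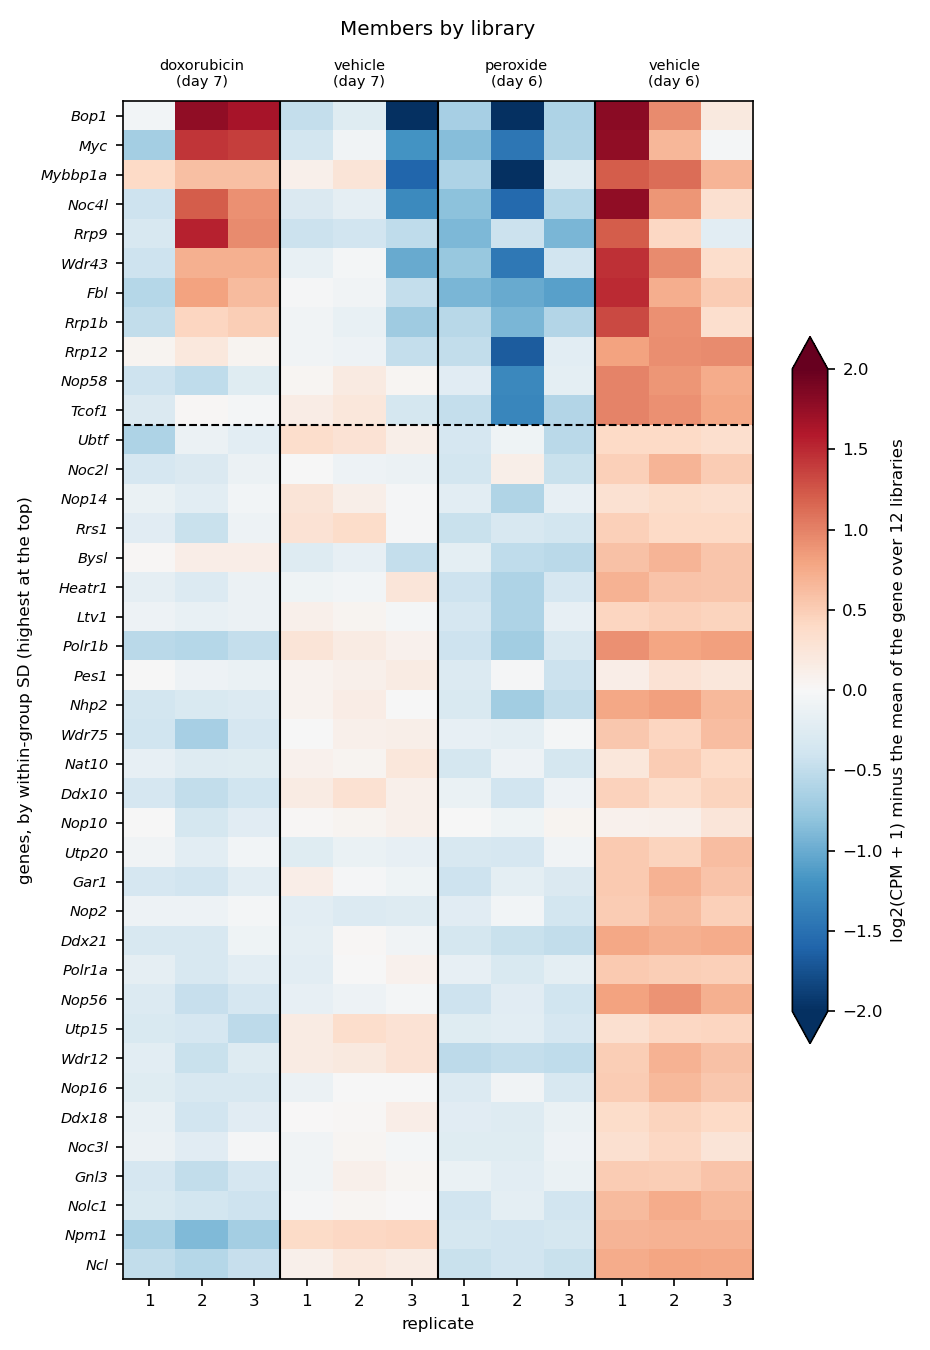
Log2(CPM + 1) of each member (rows, ordered by within-group SD) in each library (columns, by group and replicate), minus the mean of the gene over 12 libraries; colours stop at -2 and 2. Above the dashed line, at an SD of 0.25, doxorubicin replicate 1, day 7 vehicle replicate 3 and peroxide replicate 2 are mostly bluer than the others of their groups; below it the day 6 vehicle libraries are redder than the other 9 in most rows.

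The treatment effects differed in 30 of the 40 members, all with a higher value for doxorubicin, at a median difference of 0.62 log2 units. Of all genes tested, 13.5% had a higher and 20.1% a lower value, with a median of -0.07, and 40.3% of the genes that differed were higher, or 51.1% after rescaling by median-of-ratios factors. None of the members had a lower value by limma, also at an unadjusted p below 0.05. The largest differences were in Bop1 (4.20 ± 0.92), Noc4l (3.13 ± 0.68), Mybbp1a (3.07 ± 0.79) and Myc (3.02 ± 0.83). The 10 that did not pass the test were Ubtf, Nop10, Npm1, Wdr75, Utp15, Nop14, Nat10, Ddx10, Pes1 and Rrs1. Of the 30, the calls of Gnl3 (0.28), Ddx18 (0.31), Noc3l (0.42), Noc2l (0.61) and Nop58 (0.97) were each lost on leaving out any one of 10, 9, 6, 7 and 9 of the 12 libraries in turn, with adjusted p up to 0.107.

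By arithmetic this difference is the gap between the treated groups minus the gap between the vehicle groups, and both gaps were measured. In the day 7 vehicle group 29 members were lower than in the day 6 vehicle group and none was higher by limma, also at an unadjusted p below 0.05, at a median of -0.62. Over all genes tested 12.9% were lower and 15.1% higher, with a median of -0.02. The comparison of the treated groups, lysed on different days, was added after the data were seen. In it 9 members were higher after doxorubicin than after peroxide and 3 were lower (Npm1, Wdr75 and Gnl3), at a median of 0.13. Of all genes tested, 9.50% were higher and 18.0% lower, with a median of -0.07. After median-of-ratios rescaling the members split 14 higher to 1 lower, and the higher share of all called genes moved from 34.6% to 49.5%. The 9 were Bop1, Mybbp1a, Noc4l, Rrp9, Fbl, Wdr43, Rrp12, Tcof1 and Bysl, 8 of which are in the group of wide spread. The number was 1 without doxorubicin replicate 3, 2 without doxorubicin replicate 2, and 5 without peroxide replicate 1 or day 6 vehicle replicate 2. Over all genes tested the number higher, 1262 in the main fit, was 555, 541, 910 and 1012 in that order. The number of members lower was 1 without doxorubicin replicate 2 or peroxide replicate 3. Over all genes tested it was 1442 and 1897, in place of 2384.

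Nop56 and Polr1b serve as examples, picked with their values already seen. Nop56 was at 238 ± 16.3 CPM after doxorubicin and 241 ± 18.2 after peroxide, with vehicle groups at 285 ± 12.5 and 535 ± 34.3 CPM (SD, n = 3). Polr1b was at 16.2 ± 0.631 and 16.9 ± 2.39 CPM after treatment and at 26.8 ± 1.72 and 43.3 ± 2.12 CPM in the vehicle groups. The treated groups differed by -0.01 ± 0.08 log2 units in Nop56 and -0.05 ± 0.10 in Polr1b (SE, adjusted p = 0.91 and 0.714), which does not show that the levels are the same. The vehicle groups differed by -0.91 ± 0.08 (adjusted p = 1.83e-05) and -0.67 ± 0.10 (adjusted p = 0.000749). Npm1 was lower after doxorubicin than after peroxide, with a log2 difference of -0.37 ± 0.07 (adjusted p = 0.00331).

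The 6 members with CACGTG in the promoter window had a median log2 fold change of 0.11 after doxorubicin and -0.80 after peroxide, and the 27 whose windows lack it had -0.30 and -0.89. Of the 6, Mybbp1a and Wdr43 belong to the members of wide spread and Ltv1, Nop2, Pes1 and Utp20 do not. These are descriptions of few genes, with no test.

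Other genes of the same pathway, from lists that hold none of the members, were counted in the same way. Of 36 other factors of the small subunit, 27 fell and 1 rose after peroxide, and 15 fell and 4 rose after doxorubicin. Of 37 other factors of the large subunit, 28 fell and 2 rose after peroxide, and 10 fell and 8 rose after doxorubicin. The medians were -0.57 and -0.05 for the first list and -0.61 and -0.05 for the second, in the same order. Over all genes tested 23.4% fell and 27.3% rose after peroxide, and 27.8% fell and 22.1% rose after doxorubicin. The shares of the large subunit list after doxorubicin, 27.0% and 21.6%, thus lay near the background. The 4 rises for the small subunit ran from 1 to 7 with single libraries left out, being 7 without doxorubicin replicate 1 and 1 without day 7 vehicle replicate 3. They were 2 without doxorubicin replicate 2 or 3. The 8 rises for the large subunit ran from 4 to 12, being 4 without doxorubicin replicate 3 or day 7 vehicle replicate 3 and 5 without doxorubicin replicate 2 or day 7 vehicle replicate 1. Nol6 of the small subunit list rose by 1.55 ± 0.40 log2 units after doxorubicin (adjusted p = 0.00836), with libraries at 17.8, 44.3 and 35.2 against 12.1, 13.5 and 5.49 CPM. Wdr18 of the large subunit list rose by 1.90 ± 0.61 after doxorubicin (adjusted p = 0.0224) and fell by 1.89 ± 0.61 after peroxide (adjusted p = 0.0225). With each left-out library counted as a setting, each of these calls was lost in 5 settings (adjusted p up to 0.0882 and 0.0857). Rrp15 fell by 2.58 ± 0.65 after peroxide (adjusted p = 0.00638).

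Dkc1, the pseudouridine synthase of the box H/ACA particle and the partner of Nop10, Gar1 and Nhp2, fell under both treatments. It was at 50.3, 45.8 and 50.5 CPM after doxorubicin and 100.0, 98.9 and 104 CPM in its vehicle group. It was at 53.4, 57.1 and 52.1 CPM after peroxide and 188, 184 and 185 CPM in its vehicle group. The groups did not overlap, and Dkc1 fell by 1.04 ± 0.06 (adjusted p = 2.1e-07) and 1.76 ± 0.06 log2 units (adjusted p = 5.87e-09). Of 9 other genes of small nucleolar particles, Dkc1 included, 5 fell and 1 rose under each treatment, with 3 falls after doxorubicin without doxorubicin replicate 2 or day 7 vehicle replicate 1 or 3. The riser was Znhit6, an assembly factor of box C/D particles, which rose by 0.94 ± 0.08 after doxorubicin (adjusted p = 2.4e-06) and 0.76 ± 0.08 after peroxide (adjusted p = 1.19e-05). Of 12 other genes of polymerase I transcription, 3 fell after doxorubicin, a share of 25.0% near the background of 27.8%, and 7 fell and 1 rose after peroxide. Taf1b, a subunit of the selectivity factor of polymerase I, fell by 0.90 ± 0.09 and 0.43 ± 0.09 log2 units. Of 10 tested genes of the RNA exosome, which trims precursor RNA, 7 fell and 1 rose (Exosc4) after doxorubicin and 7 fell after peroxide. For all lists of this paragraph, 27.8% of all genes tested fell after doxorubicin and 23.4% after peroxide. After median-of-ratios rescaling 4 exosome genes fell after doxorubicin, and Exosc4 was not called without doxorubicin replicate 2 or 3 or day 7 vehicle replicate 3 (adjusted p up to 0.0904). Exosc8 fell by 1.06 ± 0.07 and 1.24 ± 0.07 log2 units.

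Of 20 other genes listed as targets of Myc, 15 fell and 2 rose after doxorubicin and 19 fell and 1 rose after peroxide, with medians of -0.45 and -0.75. Among all genes tested 27.8% fell and 22.1% rose after doxorubicin, with a median of -0.03. After peroxide 23.4% fell and 27.3% rose, with a median of -0.01. The transferrin receptor Tfrc, which brings iron into the cell, was at 13.4, 12.3 and 13.7 CPM after doxorubicin and 65.9, 80.0 and 68.4 CPM in its vehicle group. It fell by 2.36 ± 0.10 log2 units after doxorubicin (adjusted p = 1.26e-08) and 2.52 ± 0.10 after peroxide (adjusted p = 1.12e-08). Phb, the mitochondrial protein prohibitin, rose by 1.77 ± 0.66 after doxorubicin (adjusted p = 0.0444) and fell by 2.21 ± 0.66 after peroxide (adjusted p = 0.0163), with libraries at 81.6, 201 and 202 CPM after doxorubicin and 68.9, 69.3 and 16.5 CPM in its vehicle group. Without doxorubicin replicate 2 or 3, day 7 vehicle replicate 3, peroxide replicate 1 or day 6 vehicle replicate 2, 1 target rose after doxorubicin in place of 2. Counted by setting, the doxorubicin call of Phb was lost in 11 (adjusted p up to 0.175) and its peroxide call in 3 (up to 0.0668).

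Myc works in a network of related proteins, many but not all of which share the partner Max. Max was at 108 ± 3.49 CPM after doxorubicin against 114 ± 1.20, and at 103 ± 9.67 CPM after peroxide against 93.1 ± 2.81 (SD, n = 3). Neither difference passed the test (log2 fold changes of -0.09 ± 0.07 and 0.14 ± 0.07, adjusted p = 0.325 and 0.121). Of the Mxd proteins, which compete with Myc for Max as repressors, Mxd4 rose under both treatments, by 1.89 ± 0.14 log2 units after peroxide (adjusted p = 9.13e-07) and 0.58 ± 0.14 after doxorubicin (adjusted p = 0.0055). Its libraries were at 127, 164 and 123 CPM after peroxide and 30.9, 34.2 and 44.2 CPM in the vehicle group, and at 111, 117 and 112 CPM after doxorubicin and 72.0, 70.4 and 85.7 CPM in its vehicle group. Mxi1 and Mxd1 rose by 1.09 ± 0.18 and 1.01 ± 0.15 after peroxide, with -0.39 ± 0.18 and 0.15 ± 0.15 after doxorubicin (adjusted p = 0.0905 and 0.418). Mxd3 fell by 1.87 ± 0.23 log2 units under each treatment. Of the remaining relatives, Mlx fell by 0.25 ± 0.07 and Mga by 0.30 ± 0.10 after doxorubicin (adjusted p = 0.0148 and 0.0321), and no call was made for them after peroxide or for Mnt and Mlxip in either comparison. With each left-out library counted as a setting, the limma call was lost in 4 settings for Mlx and 12 for Mga. The adjusted p reached 0.0928 and 0.304. Of the 9 tested, Max included, 3 fell after doxorubicin, or 1 without day 7 vehicle replicate 3. After peroxide 3 rose, or 5 without peroxide replicate 3. Over all genes tested 27.8% fell after doxorubicin and 27.3% rose after peroxide, so 3 of 9 lay near the background in both. Mycn was at 0 CPM in all 12 libraries and Mycl at 0.0618 to 1.05 CPM, and neither was tested.

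**Figure D4:**
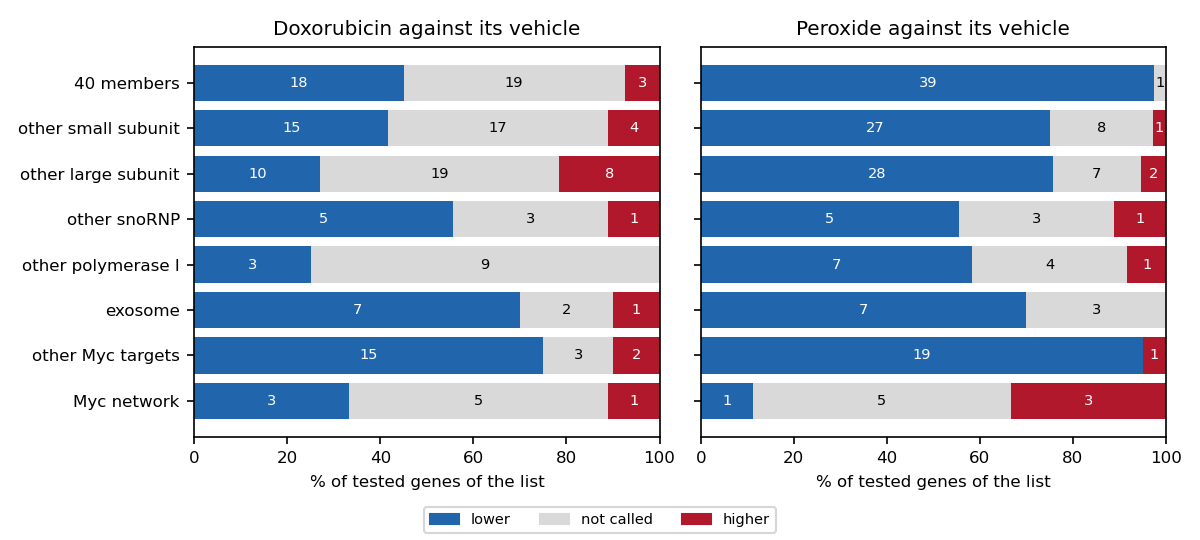
Share of the tested genes of each list (x axis, percent) that were lower (blue), higher (red) or not called (grey) after doxorubicin (left) and peroxide (right), with counts in the bars. The members and the other Myc targets are almost wholly blue after peroxide, at 39 of 40 and 19 of 20, while after doxorubicin a grey share is present in every list and a red share in all but the polymerase I list.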

How the data were processed

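RNA sequencing libraries (12, in 4 groups of 3) were read from a table of CPM values, deposited by the authors and made from reads sequenced on a NovaSeq instrument per the labels' protocols. The submitters' processing notes name bcl2fastq, DRAGEN and mm10, while how reads were counted, whether by strand and on which annotation is not given in the sources used here (nor are versions). The 287 lines of 55774 that repeated an identifier held identical values and were dropped, which left 55487 genes. Library totals were then 1000000 CPM. Of values up to 20 reads, 74.7 to 79.9% were whole reads (tolerance 0.001 read), so whole reads were not recovered and no count test was run. Estimated depths limit counting precision as given with the results.

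The 13280 genes that reached 1 CPM in 3 or more libraries were tested on log2(CPM + 1), which understates changes of low genes, in 1 limma model of the 4 groups with a mean-variance trend (limma 3.58.1, R 4.3.3, 8 residual degrees of freedom, two-sided, Benjamini-Hochberg adjustment within each comparison, threshold 0.05). Comparisons were each treatment against its vehicle, their difference, vehicle against vehicle and, added after the data were seen, doxorubicin against peroxide. All 40 members passed the filter. The fit was tested on simulated data in which genes varied independently. That test cannot show how calls behave where the genes of a library deviate together, as they did here. Members, gene lists and tests were chosen with earlier results of these data known. Library values are given for Myc, the extremes of each comparison and the smallest adjusted p of each role group. From every other list the genes with the largest fold changes, chosen by a rule, could be named, and the Myc network whatever its values; values of Rrp9, Bysl, Fbl and Noc4l by library were added after they were seen. Alternatives, 14 planned and 3 added after the data were seen (GC correction, a covariate for the within-group direction, leaving out 2 libraries), covered pseudocounts, filters, scalings, weights, fits, thresholds and left-out libraries. Positions, snoRNAs and windows of 50 bases shared between transcripts came from GENCODE M21 on mm10, in which 55141 identifiers (99.4%) were found. Tables used Python 3.11.15, numpy 2.4.6, pandas 2.3.3 and matplotlib 3.10.9.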

Additional observations from a re-analysis of the deposited data

Results flagged for a closer look

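In 30 members the effect of doxorubicin differed from that of peroxide by the limma test of the difference itself, so each is listed with that difference, in log2 units, doxorubicin effect minus peroxide effect. The difference was 4.20 for Bop1, 3.13 for Noc4l, 3.07 for Mybbp1a, 3.02 for Myc, 2.52 for Wdr43, 2.39 for Fbl, 2.38 for Rrp9, 2.01 for Rrp12 and 2.00 for Rrp1b. In a middle range it was 1.58 for Tcof1, 1.42 for Bysl, 1.01 for Ddx21, 0.97 for Nop58, 0.92 for Nop2, 0.89 for Nop56, 0.85 for Nhp2, 0.83 for Heatr1 and 0.83 for Utp20. At the lower end it was 0.67 for Ltv1, 0.62 for Nolc1, 0.62 for Polr1b, 0.61 for Noc2l, 0.57 for Wdr12, 0.57 for Gar1, 0.54 for Nop16, 0.53 for Polr1a, 0.52 for Ncl, 0.42 for Noc3l, 0.31 for Ddx18 and 0.28 for Gnl3. All are positive. Day, dosing and treatment cannot be told apart in these differences.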

How the results depend on the processing

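Over the planned and added alternatives, the number of members that fell after peroxide was 36 to 39 and that after doxorubicin 13 to 22, and the number with a higher doxorubicin than peroxide effect was 21 to 34. The number lower in the day 7 than in the day 6 vehicle group was 20 to 33. The median log2 fold changes kept their signs in these comparisons. The number that rose after doxorubicin, 3 as reported, was 9 with array weights, 0 at a threshold of 0.01, 7 without the 3 libraries that stood apart and 8 with the covariate, and ran from 1 to 8 with single libraries left out. The number higher after doxorubicin than after peroxide, 9 as reported, was 2 without a filter on low values, 14 with median-of-ratios scaling, 18 with array weights, 3 with the replicate block, 1 at a threshold of 0.01 and 14 without the 3 libraries, and ran from 1 to 9 with single libraries left out. The number lower, 3 as reported, was 1 with median-of-ratios scaling, 6 with array weights, 1 at a threshold of 0.01, 5 without the 3 libraries and 0 with GC correction, and ran from 1 to 4 with single libraries left out. A threshold of 0.01 makes fewer calls by construction. The covariate, taken from the within-group deviations, lowers the residual spread by construction. Elsewhere the cause was not tested. Over all genes tested, rises after doxorubicin went from 2937 to 4221 with array weights, 3489 without the 3 libraries and 3659 with the covariate. Genes higher after doxorubicin than after peroxide went from 1262 to 2439 with array weights, 2284 without the 3 libraries and 879 with the block. Genes lower went from 2384 to 3655, 2840 and 2108 in the same order. With median-of-ratios scaling 1577 were higher and 1607 lower. Some differences near 0 changed sign: that of Npm1 was 0.0795 with GC correction, and that of Utp15 was 0.0569 with median-of-ratios scaling, 0.112 with GC correction, 0.0273 without 2 libraries and -0.0636 to 0.0610 with single libraries left out. The difference of Ddx10 was -0.0491 with upper-quartile scaling, -0.00949 with a total without the 100 highest genes, -0.0597 with array weights, -0.141 without the 3 libraries, -0.103 without 2 libraries and -0.0610 to 0.0883 with single libraries left out. The doxorubicin fold change of Noc3l was 0.0579 with GC correction, and that of Tcof1 ran from -0.281 to 0.00761 with single libraries left out. Neither was called. The fold change of Mga after peroxide, which was not called, ran from -0.0115 to 0.162 with single libraries left out.

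The replicate numbers are not stated to pair samples, and same-numbered libraries deviated together in some pairs only (r of -0.31, 0.19 and -0.28 for doxorubicin and 0.14, 0.030 and -0.24 for peroxide), and not every library correlated best with its own number. With the replicate number as a block, 17 members fell and 2 rose after doxorubicin, 38 fell after peroxide (Myc was lost, adjusted p = 0.0504), 27 had a higher doxorubicin effect, and 25 were lower in the day 7 vehicle group. Library depth leaves all members far above the level of 3 reads, and 3 libraries a group limit the precision.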

Other observations

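The introns of several members carry small nucleolar RNA genes, which guide the modification of ribosomal RNA. The annotation places 18 such genes within 5 members on the same strand (Gnl3, Ncl, Nop56, Nop58 and Wdr43). Gm24451, within Nop56 (chromosome 2, 130276237 to 130276369, plus strand, mm10), was above the level of 3 reads in 2 libraries, with a highest value of 0.308 CPM. The other 17 were not above it in any library. Of the RNAs listed for ribosome production only Rpph1, the RNA of the enzyme that trims transfer RNA, is shown, and it reached at most 1.14 CPM. None of these RNAs was tested, and Rn45s and Snord3a were not analysed here.

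Of 7 listed genes that regulate ribosomal DNA, not all of them by silencing it, 2 fell and 1 rose after doxorubicin. After peroxide 2 fell and 3 rose. The falls, 28.6% of the list in each comparison, lay near the 27.8% and 23.4% of all genes tested, and the rise of Rrp8 after doxorubicin was lost without doxorubicin replicate 2 or 3 or day 7 vehicle replicate 3. After peroxide 1 gene rose in place of 3 without peroxide replicate 1 or 2 or day 6 vehicle replicate 3. Rrp8, a subunit of a silencing complex, rose by 0.77 ± 0.24 log2 units after doxorubicin (adjusted p = 0.0209) and fell by 1.37 ± 0.24 after peroxide (adjusted p = 0.000695). Its libraries were at 16.2, 29.4 and 23.4 CPM after doxorubicin and 13.5, 15.5 and 9.64 CPM in the vehicle group. Smarca5, a chromatin remodeller, fell by 0.58 ± 0.10 (adjusted p = 0.000665) and 0.46 ± 0.10 log2 units (adjusted p = 0.00285).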
